A study of Homo sapiens with 6 samples.

Results

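The S100 calcium-binding proteins were followed through 10 genes chosen by symbol, S100A1, S100A2, S100A3, S100A4, S100A6, S100A9, S100A10, S100A11, S100A14 and S100A16, among the 16229 genes of the deposited count table. All 10 had a row and all 10 passed the filter on low counts, although S100A9 passed only through one of the groups. The libraries came from a colorectal cancer line named MC38 of wild-type genotype: 3 were from cells given GCA for 24 hours and 3 from cells without GCA, the controls (CON). GCA is read here as glycocholic acid, a glycine-conjugated bile acid that the study's title names, at a dose that the labels leave out. The design asks what GCA does to gene expression in these cells. MC38 is known as a mouse line, whereas the labels and both tables are human, and the extraction protocol speaks of heart tissue, so these labels conflict. The GCA samples carry the title fa, which the sources do not explain, and their group rests on the treatment label. Nothing says that replicates were separate cultures, so a p-value can reflect technical spread alone. Total counts were 19484569 to 20531612 in GCA and 18057453 to 19110987 in CON, and a floor of 3 counts in a library was 0.149 to 0.157 CPM in GCA and 0.155 to 0.167 CPM in CON (CPM, counts scaled to TMM library sizes). Such floors cover counting error only. CON 1 stood apart from the other CON libraries on the second principal component, at 34.5 against -14.7 and -17.8.

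S100 proteins are small proteins with a pair of calcium-binding EF-hand loops. Most work as dimers that open on binding calcium and then grip a partner, such as an annexin, non-muscle myosin or p53. Several are also released from cells and act on the receptor RAGE or on TLR4. Most of their genes lie together on the long arm of human chromosome 1, and in gut epithelium and its tumours S100A4 and S100A6 are known for their links to motility and to proliferating cells. The 10 genes were chosen with results of this comparison known. Their GCA and CON values are therefore given as a description without p-values. A count of them past the threshold describes the fit and is no test, and tests are reported for genes outside the set.

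Promoter windows of 5 of the genes are shown because 4 of them hold a TATA box core ahead of the start, and because S100A1 and S100A9 had the widest differences between groups. Each window is 300 bases from RefSeq on GRCh38.p14, running 5′ to 3′ on the gene's strand from 250 bases before the annotated start to 50 after it. Capitals mark matches to TATAA, the core of a TATA box, and to the GC box GGGCGG, on either strand.
S100A1 (chr1:153628184-153628483, plus strand): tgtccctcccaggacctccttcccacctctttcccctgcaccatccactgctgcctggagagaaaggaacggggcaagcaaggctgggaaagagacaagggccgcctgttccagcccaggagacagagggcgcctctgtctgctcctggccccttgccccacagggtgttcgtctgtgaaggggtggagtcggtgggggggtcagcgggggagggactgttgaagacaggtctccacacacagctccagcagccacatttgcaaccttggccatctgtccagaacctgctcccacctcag
S100A4 (chr1:153545757-153546056, minus strand): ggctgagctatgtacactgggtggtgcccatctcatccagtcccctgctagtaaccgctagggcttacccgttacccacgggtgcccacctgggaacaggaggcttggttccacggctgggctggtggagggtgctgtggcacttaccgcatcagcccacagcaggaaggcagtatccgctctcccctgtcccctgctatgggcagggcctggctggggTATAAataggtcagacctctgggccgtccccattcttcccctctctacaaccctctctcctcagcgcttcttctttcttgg
S100A6 (chr1:153535942-153536241, minus strand): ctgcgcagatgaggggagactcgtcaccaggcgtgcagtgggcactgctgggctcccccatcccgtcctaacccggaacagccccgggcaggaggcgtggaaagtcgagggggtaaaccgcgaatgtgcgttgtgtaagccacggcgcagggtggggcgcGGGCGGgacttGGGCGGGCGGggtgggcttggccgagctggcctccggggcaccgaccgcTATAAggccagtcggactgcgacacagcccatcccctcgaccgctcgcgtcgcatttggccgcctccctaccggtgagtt
S100A9 (chr1:153357604-153357903, plus strand): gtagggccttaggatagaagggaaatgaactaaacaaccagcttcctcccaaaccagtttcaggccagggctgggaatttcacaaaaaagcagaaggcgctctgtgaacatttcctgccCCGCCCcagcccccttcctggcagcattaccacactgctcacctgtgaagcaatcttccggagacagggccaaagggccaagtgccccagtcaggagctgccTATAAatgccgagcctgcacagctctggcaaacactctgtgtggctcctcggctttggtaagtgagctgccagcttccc
S100A14 (chr1:153616276-153616575, minus strand): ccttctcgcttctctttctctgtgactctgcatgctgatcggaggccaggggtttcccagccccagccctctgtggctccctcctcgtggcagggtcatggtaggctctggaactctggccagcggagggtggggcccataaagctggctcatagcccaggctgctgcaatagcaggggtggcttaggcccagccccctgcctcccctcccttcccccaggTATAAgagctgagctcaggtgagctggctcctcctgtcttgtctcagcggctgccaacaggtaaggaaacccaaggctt
A TATAA match stood at positions -31 to -29 from the start in 4 of the 10 genes (S100A4, S100A6, S100A9 and S100A14). The 10 genes have 12 windows, of which 4 hold TATAA anywhere, beside 20.4% of 35116 RefSeq windows of this length. The GC box was found in 6 of the 12 windows, from 6 genes, beside 45.0% of all windows. S100A6 held 3 matches, 2 of which overlap. The AP-1 motif TGANTCA was present for S100A2 and S100A3 (7.7% of all windows), the STAT motif TTCNNNGAA for S100A3 alone (7.7%) and the core of the interferon response element for none (3.6%). The S100A1 window held none of these motifs. CpG dinucleotides ranged from 3 to 32 over the 12 windows of the 10 genes, where the median of all windows was 14. S100A10 and S100A6 had 32 and 31, S100A1 had 6 and S100A9 had 5. These are matches of letters only.

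Together the 10 genes took a larger share of all counts with GCA. Their summed share was 0.391%, 0.481% and 0.463% in GCA 1 to 3, against 0.278%, 0.274% and 0.295% in CON 1 to 3. Every GCA library lay above every CON library, with means of 0.445 ± 0.0479% in GCA and 0.283 ± 0.0112% in CON (SD, n = 3 each). S100A6 alone made up 54.1 ± 2.45% of the summed counts in GCA and 48.7 ± 0.615% in CON. Without S100A6 the share was 0.204 ± 0.012% in GCA and 0.145 ± 0.00422% in CON. All these shares are of raw counts. For S100A6 a log2 fold change of 0.85 became 0.16 once trends with GC content and gene length were removed, as described below. In that fit 6 of the 10 genes were past the threshold as higher and 2 as lower. In bulk RNA a change in how many cells express a gene and a change in RNA per cell cannot be told apart.

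**Figure D1:**
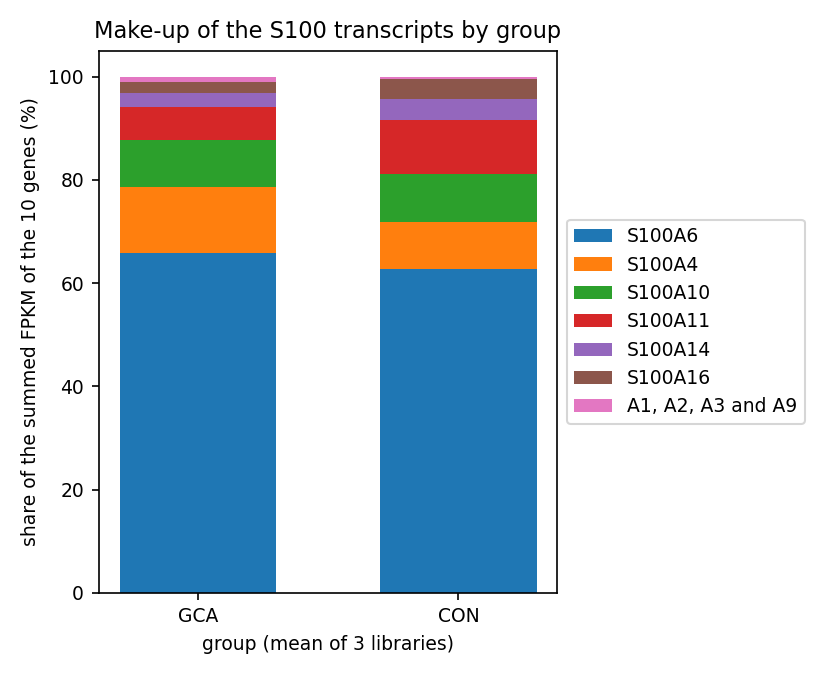
Makeup of the S100 signal. Stacked bars give each gene's percent of the summed FPKM of the 10 genes, as the mean of 3 GCA libraries (left) and 3 CON libraries (right), with S100A1, S100A2, S100A3 and S100A9 as 1 band. S100A6 is the widest band, at 65.9% in GCA and 62.8% in CON, and the S100A11 band is narrower in GCA (6.39%) than in CON (10.5%).

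Levels between genes were compared as FPKM, the deposited values scaled by gene length and library total. In GCA the order was S100A6 at 5563, S100A4 at 1087, S100A10 at 757, S100A11 at 533, S100A14 at 221, S100A16 at 182, S100A3 at 29.9, S100A2 at 26.0, S100A1 at 23.3 and S100A9 at 1.64 mean FPKM. Of the neighbours in that order, the library ranges overlapped for S100A2 and S100A1 alone. In CON the order was S100A6 at 3174, S100A11 at 532, S100A10 at 467, S100A4 at 455, S100A14 at 206, S100A16 at 195, S100A2 at 14.5, S100A3 at 11.3, S100A1 at 1.41 and S100A9 at 0.157 mean FPKM. There the ranges overlapped for S100A11 with S100A10, S100A10 with S100A4, S100A14 with S100A16, and S100A2 with S100A3. S100A4 thus stood above S100A10 and S100A11 in GCA and below both on average in CON. S100A6 had the seventh highest mean FPKM of all 16229 genes over the 6 libraries.

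**Figure D2:**
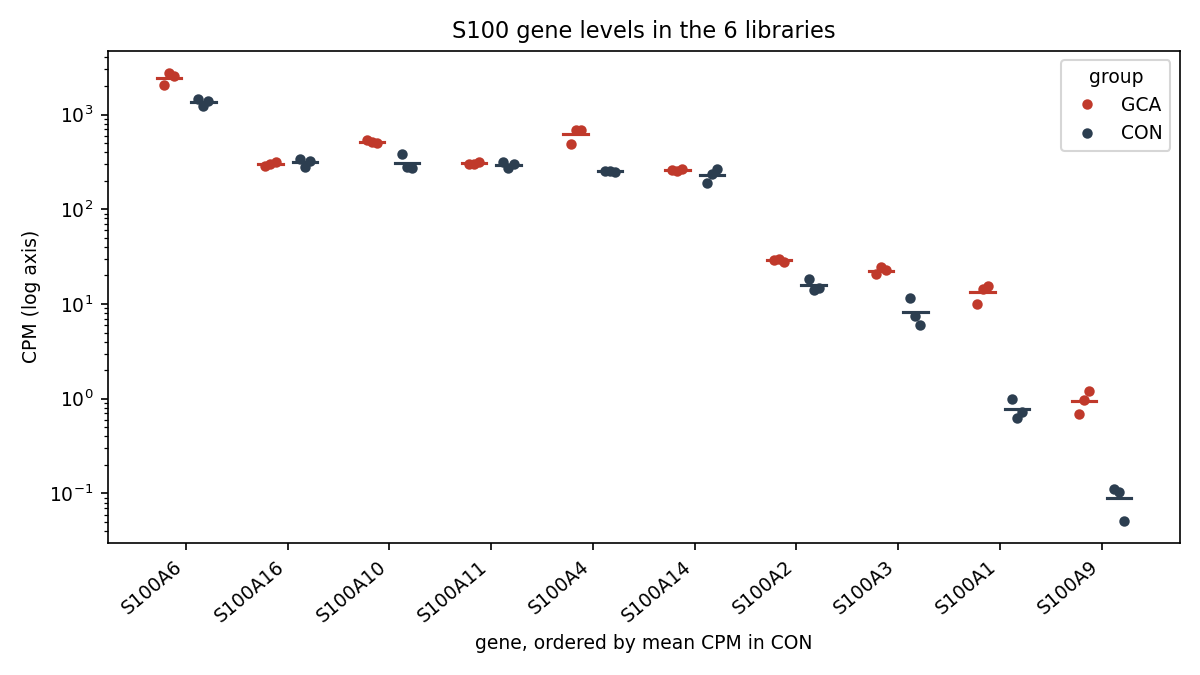
Levels of the 10 S100 genes by library. Points are TMM-scaled CPM on a log10 axis for 3 GCA and 3 CON libraries, with the group mean as a bar. The groups are apart for S100A1, S100A2, S100A3, S100A4, S100A6, S100A9 and S100A10, and overlap for S100A11, S100A14 and S100A16.

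Of the 10 genes, 7 were past an adjusted p of 0.05 in edgeR's quasi-likelihood test, all higher in GCA, and the same 7 had groups that did not overlap. Over all 12604 tested genes 36.4% passed in either direction, 18.3% higher and 18.1% lower in GCA, and 24.1% had every GCA library above every CON library. Since the genes were chosen on this contrast, nothing is read from the count of 7. With the replicate number as a block the same 7 passed (20.0% of all genes passed as higher), and also when any 1 library, or replicate 1 of both groups, was left out. These repeats are no test either, and S100A9, 1 of the 7, passed the filter on low counts only through GCA. The median log2 fold change of the 10 was 0.86, beside -0.04 over all tested genes, and it was 0.46 beside -0.06 with the GC and length trends described next removed. The genes are short and rich in G and C, and fold changes moved across all genes with GC content (r = 0.48) and with log2 length (r = -0.22), where genes are not independent replicates. With both trends removed in each library, 6 of the 10 were past the threshold as higher and 2 as lower, where 12.1% of all genes were higher and 17.2% lower. That fit is given beside each gene where it matters.

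Among the genes linked to the cytoskeleton and to membranes, S100A4 differed most between the groups. S100A4 (chr1:153543613-153550136, minus strand, GRCh38) binds non-muscle myosin IIA and is known as metastasin. It had 486, 694 and 683 CPM in GCA 1 to 3, against 256, 252 and 246 CPM in CON 1 to 3. The GCA libraries were all above the CON libraries, GCA 1 was the lowest of its group, and CON varied little (621 ± 117 CPM in GCA and 251 ± 4.9 CPM in CON). The log2 fold change was 1.30 ± 0.15 (SE), a 2.47-fold difference, and 0.94 ± 0.15 with the GC and length trends removed.

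S100A6 (calcyclin, chr1:153534599-153536244, minus strand) binds CACYBP and several annexins. Its level was 2048, 2734 and 2576 CPM in GCA and 1445, 1243 and 1388 CPM in CON. The groups did not overlap, with means of 2453 ± 359 CPM in GCA and 1358 ± 104 CPM in CON and a log2 fold change of 0.85 ± 0.15. With both trends removed this was 0.16 ± 0.14, a 1.12-fold difference, and 0.17 with the replicate block added. With GC content alone removed it was 0.46 and with length alone 0.40. S100A6 is the shortest of the 10 at 434 bases in the deposited table, where 0.119% of tested genes are shorter, and its GC content of 60.2% is above that of 82.5% of tested genes. The part of GC content and length in its difference was not tested.

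S100A10 (p11, chr1:151982915-151994390, minus strand) does not bind calcium and forms a tetramer with annexin A2 that binds plasminogen at the cell surface. It had 539, 510 and 499 CPM in GCA, against 384, 277 and 272 CPM in CON. All GCA libraries were above CON, of which CON 1 was the highest (516 ± 20.5 CPM in GCA and 311 ± 63.3 CPM in CON). The log2 fold change was 0.73 ± 0.15, and 0.31 ± 0.09 with both trends removed, a 1.24-fold difference.

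S100A11 (chr1:152032506-152047907, minus strand), which binds annexin A1, overlapped between the groups. Its values were 300, 302 and 313 CPM in GCA and 317, 270 and 299 CPM in CON. The log2 fold change was 0.05 ± 0.12. With both trends removed this became -0.35 ± 0.11, with length alone removed also -0.35, and with GC content alone -0.12.

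Of 4 genes known from surface epithelia and hair, S100A2 and S100A3 had groups apart, and S100A14 and S100A16 did not. S100A2 (chr1:153561108-153567890, minus strand), a nuclear S100 that binds p53 and is typical of basal epithelium, had 29.4, 29.8 and 27.9 CPM in GCA and 18.5, 14 and 14.9 CPM in CON. Its groups were apart, with a log2 fold change of 0.88 ± 0.14, and 0.62 ± 0.10 with both trends removed. S100A3 (chr1:153547329-153549372, minus strand), known from the hair cuticle, had 20.5, 24.3 and 22.8 CPM in GCA and 11.6, 7.40 and 5.95 CPM in CON. Here too every GCA library was above every CON library, and the log2 fold change was 1.44 ± 0.21, or 0.95 ± 0.15 with both trends removed.

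S100A14 (chr1:153614255-153616986, minus strand), an S100 of differentiated epithelia, had 259, 252 and 267 CPM in GCA and 191, 238 and 266 CPM in CON. The groups overlapped, since the CON libraries spread over a wider range (260 ± 7.38 CPM in GCA and 232 ± 37.8 CPM in CON), and the log2 fold change was 0.16 ± 0.14 (-0.10 ± 0.16 with both trends removed). S100A16 (chr1:153606886-153613145, minus strand), a broadly expressed relative, had 289, 297 and 319 CPM in GCA and 336, 282 and 322 CPM in CON. Its groups overlapped as well, with a log2 fold change of -0.06 ± 0.12. With both trends removed it was -0.37 ± 0.09, with GC content alone -0.32 and with length alone -0.26.

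S100A1 (chr1:153627926-153632039, plus strand) had the widest fitted difference of the 10. It is best known from striated muscle, where its protein acts on the ryanodine receptor and the calcium pump. Its counts were 201, 284 and 293 in GCA and 18, 12 and 14 in CON, or 13.3 ± 2.88 CPM in GCA and 0.784 ± 0.195 CPM in CON. All CON libraries were above the floor and far below every GCA library. The log2 fold change was 4.07 ± 0.27, a 16.8-fold difference. Counted from the most raised gene downwards, S100A1 ranked 21 of 12604 tested genes. With both trends removed it was 3.52 ± 0.22 (11.5-fold).

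S100A1 lies across the start of its neighbour S100A13 on the opposite strand, so the counts of both depend on how reads were assigned. The gene spans share 3435 bases and the exons 235 bases on GRCh38, 7.8% of S100A1 exons and 10.6% of S100A13 exons, and the strand setting of the counting is not stated in the labels. S100A1 counts were 7.91%, 9.01% and 9.38% of S100A13 counts in GCA, against 1.09%, 0.915% and 1.02% in CON. Every GCA ratio was above every CON ratio. S100A3 lies wholly within the span of S100A4 on the same strand with no shared exon base. Its counts were 4.22%, 3.50% and 3.33% of S100A4 counts in GCA and 4.55%, 2.93% and 2.42% in CON, and these ranges overlapped.

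S100A9 (calgranulin B, chr1:153357854-153361027, plus strand) is the myeloid partner of S100A8 in calprotectin and a ligand of TLR4 and RAGE. It had 14, 19 and 23 counts in GCA and 2, 2 and 1 counts in CON. Every CON library was under the floor of 3 counts, so no fitted fold is given. Summed over libraries there were 56 counts in GCA and 5 in CON, a ratio of 10.4 per total count with an exact 95% interval of 4.2 to 33.3 that covers counting error only. This ratio too is a description, since S100A9 was chosen on this contrast. S100A8 itself had 0, 0 and 0 counts in GCA and 1, 0 and 1 in CON. Markers of myeloid cells were low in both groups. Of 14 such genes 12 had a row, and their summed level was 15.1 to 26.5 CPM in GCA and 20.6 to 27.0 CPM in CON. CD68, which other cells also express, gave most of it with 18.3 CPM in GCA and 22.3 CPM in CON. The leukocyte gene PTPRC and the myeloid genes CSF3R, FCN1 and TYROBP had at most 3 counts in any library.

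**Figure D3:**
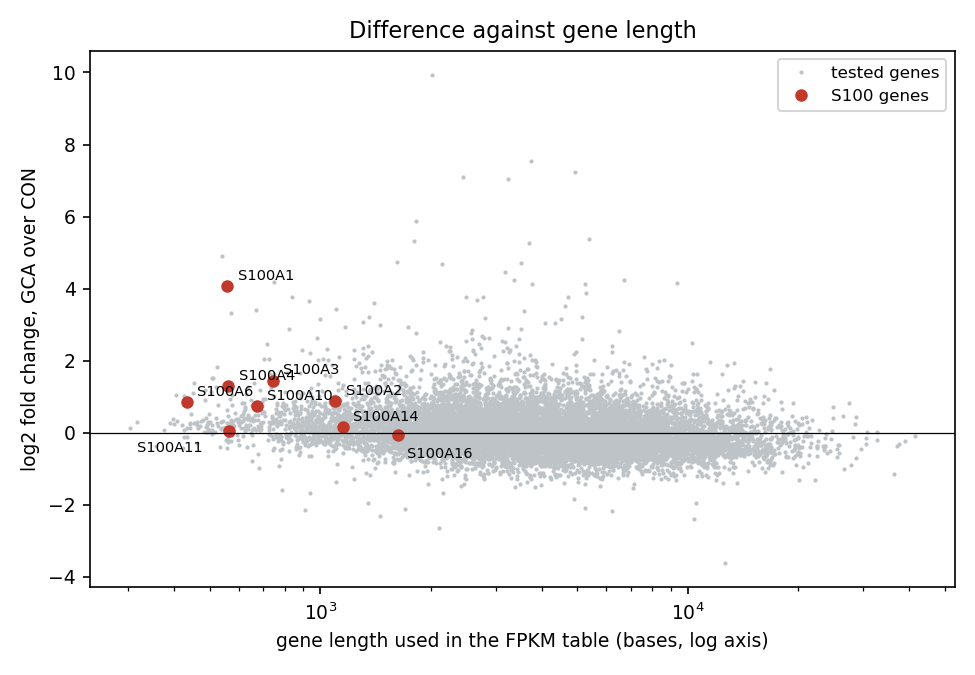
Fold change against gene length for all tested genes and the S100 genes. The x axis is gene length in bases on a log10 axis, the y axis the log2 fold change GCA over CON. The named S100 genes lie at the short end, from S100A6 at 434 bases to S100A16 at 1632 bases; S100A9 is left out because its fitted fold is not given.

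**Figure D4:**
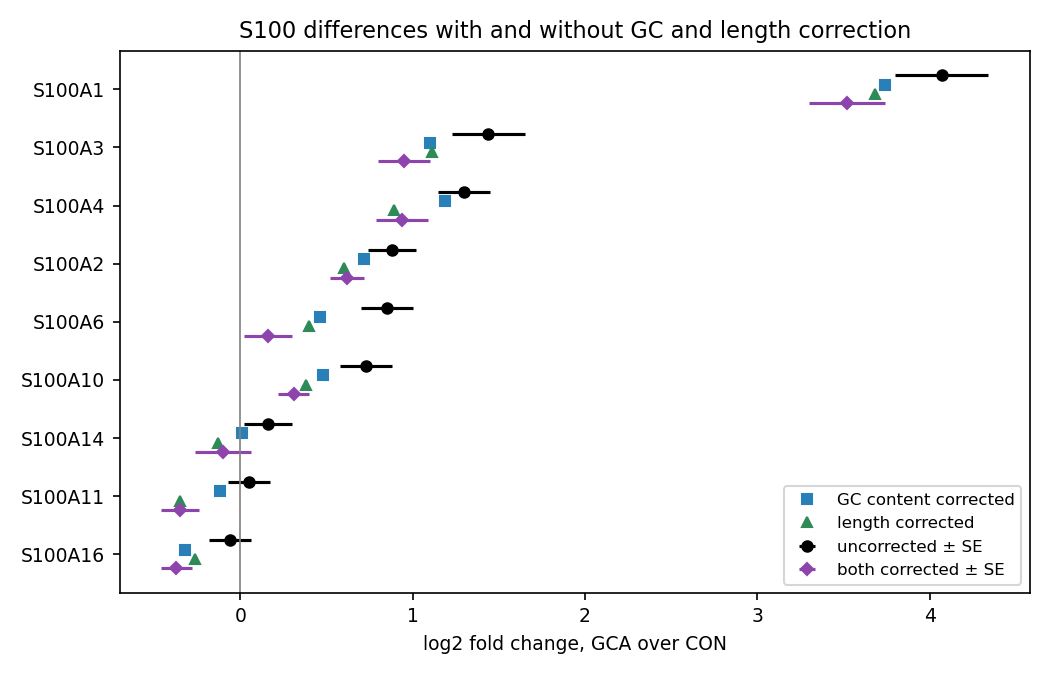
Log2 fold changes of the S100 genes (GCA over CON) under 4 fits, with standard errors where drawn: uncorrected, GC content removed, length removed and both removed. S100A1 stays highest at 4.07 and 3.52, S100A6 moves to 0.16 with both removed, and S100A11 and S100A16 move to -0.35 and -0.37; S100A9 is left out.

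Of 18 other genes of the S100 and fused S100 families, 9 had a row and 2 passed the filter, and both rose. S100A13 (chr1:153618787-153631360, minus strand), which takes part in the release of FGF1, had counts of 2541, 3153 and 3123 in GCA and 1650, 1312 and 1368 in CON. Its mean was 150 ± 20.8 CPM in GCA and 77.0 ± 12.9 CPM in CON, a log2 fold change of 0.96 ± 0.15 (edgeR, adjusted p = 0.000447), and 0.71 with both trends removed (adjusted p = 0.00344). S100A5 (chr1:153537147-153541765, minus strand), known from olfactory neurons, had 165, 112 and 127 counts in GCA and 68, 82 and 87 in CON. It rose by 0.71 ± 0.20 on the log2 scale (edgeR, adjusted p = 0.0171), and the call was lost without GCA 1 (adjusted p = 0.0619) or GCA 3 (adjusted p = 0.0554). S100A5 is next to S100A6, and its counts were 0.400%, 0.208% and 0.258% of those of S100A6 in GCA and 0.262%, 0.344% and 0.325% in CON, which overlap.

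The other 7 stayed below the filter. The tumour-associated S100P had 3, 7 and 9 counts in GCA and 3, 3 and 4 in CON, and the neural S100B had 0, 3 and 2 in GCA and 4, 7 and 0 in CON. Psoriasin (S100A7) had 1 count in a single GCA library, S100Z 2 counts in a single CON library, and the trichohyalin-like TCHHL1 1 count in a single GCA library. Trichohyalin (TCHH) had 3, 3 and 1 counts in GCA and 1, 9 and 7 in CON, and S100A8 is given above. S100A7A, S100A7L2, S100A12, S100G, FLG, FLG2, HRNR, RPTN and CRNN were not analysed here.

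**Figure D5:**
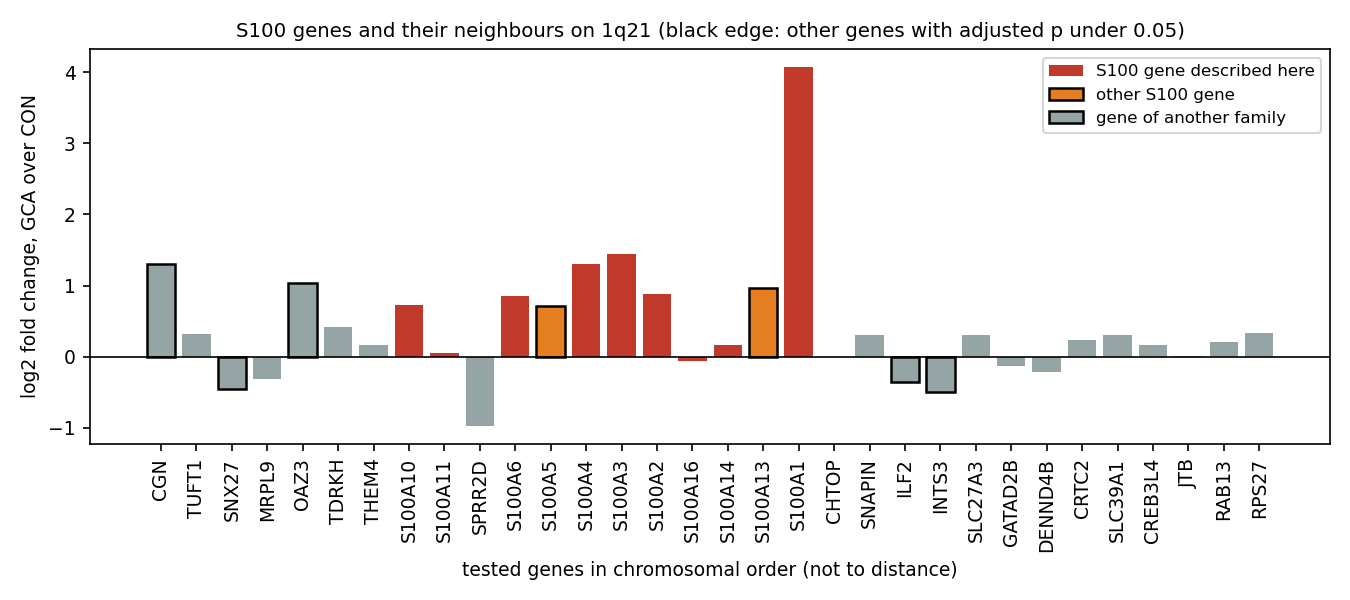
Log2 fold changes (GCA over CON) of tested genes along the stretch of chromosome 1 that holds the S100 genes, in genomic order. The x axis is gene order, not distance; S100 members, other S100 genes and neighbours are coloured apart, and a black edge marks genes other than the 10 with an adjusted p under 0.05. S100A1 stands at 4.07 beside CHTOP at 0.00; S100A9 and 1 neighbour are left out.

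The 10 genes lie over 1649.1 kb of chromosome 1 in GENCODE release 29 (GRCh38), 8 of them within 274.2 kb at the distal end. Genes between and around them moved both ways. Of 70 protein-coding neighbours within 500 kb, 38 had a row and 22 were tested. Of those tested 3 rose and 3 fell, beside 18.3% higher and 18.1% lower over all tested genes. Their median log2 fold change was 0.18, and 0.03 with both trends removed. In all 2 passed without GCA 2, 3 without GCA 3 or CON 2, and 11 without CON 1. The counts were 5 up and 3 down with the replicate block. With both trends removed they were 6 up and 3 down, beside 12.1% higher and 17.2% lower over all genes. The tight-junction gene CGN rose by 1.30 (edgeR, adjusted p = 1.17e-05). OAZ3, an antizyme gene outside the naming rule, rose by 1.04 (adjusted p = 0.0201), a call that was lost when any of 3 single libraries was left out. The endosomal sorting gene SNX27 fell by 0.46 (adjusted p = 0.0119), INTS3 of the Integrator complex by 0.50 (adjusted p = 0.0142) and the RNA-binding factor ILF2 by 0.35 (adjusted p = 0.0386). The SNX27 and ILF2 calls were lost with both trends removed, at -0.26 and -0.19, and each of these 3 genes that fell lost its call without GCA 2 and without GCA 3. CHTOP and SNAPIN, which follow S100A1 on the chromosome and were picked for that position, had log2 fold changes of 0.00 (adjusted p = 0.98) and 0.30 (adjusted p = 0.0828). SNAPIN passed once replicates were blocked (adjusted p = 0.0432) or CON 1 was left out (adjusted p = 0.00349), and the value of CHTOP became 0.21 with both trends removed. RPS27, a ribosomal protein gene and the most abundant neighbour, had 0.33 (adjusted p = 0.112), and passed without CON 1 (adjusted p = 0.00545).

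Of 30 S100 binding partners 29 had a row and 27 were tested, of which 2 rose, 9 fell and 16 did not pass, beside 18.3% higher and 18.1% lower over all tested genes. The median log2 fold change was -0.25, and with both trends removed 1 rose and 9 fell. The 11 calls became 6 without GCA 3 and 18 without CON 1. Annexin A2 (ANXA2), the partner of S100A10, had 18917, 18588 and 17689 counts in GCA and 26996, 27764 and 29283 in CON. Every GCA library was below every CON library, at 937 ± 9.9 CPM in GCA and 1489 ± 36.5 CPM in CON, and ANXA2 fell by 0.67 ± 0.12 on the log2 scale (edgeR, adjusted p = 0.00153; fell by 0.47 with both trends removed, adjusted p = 0.00779). CACYBP, the calcyclin-binding partner of S100A6 in a ubiquitin ligase complex, fell by 0.78 ± 0.16 (93.4 ± 10 CPM in GCA and 161 ± 39.9 CPM in CON, adjusted p = 0.003). CACYBP stood at -0.53 with both trends removed and missed the threshold (adjusted p = 0.0587), but passed it with the replicate block added. RAD54B, a recombination factor, fell by 1.29 (adjusted p = 0.000552) and MDM2, the p53 ubiquitin ligase, by 0.77 (adjusted p = 0.00349).

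Of the other 3 annexins that the naming rule takes as partners, ANXA6 alone passed the test. More annexins were tested outside that rule, and some of them passed. Among these ANXA3 fell by 0.83 (edgeR, adjusted p = 0.000341) and ANXA9 rose by 1.81 (edgeR, adjusted p = 9.83e-05). Their values under the other fits are not reported here. ANXA6 rose by 0.49 ± 0.13 (edgeR, adjusted p = 0.0105), a call lost with both trends removed (0.25, adjusted p = 0.105) and without CON 2 (adjusted p = 0.057). ANXA1, the partner of S100A11, had 172 ± 25.4 CPM in GCA and 196 ± 41.6 CPM in CON (log2 fold change -0.19, adjusted p = 0.378, turning to 0.02 with both trends removed, but -0.38 and past the threshold with length alone removed, adjusted p = 0.047), and ANXA11 had 0.17 (adjusted p = 0.345), which passed without CON 1 (adjusted p = 0.0111). The scaffold gene AHNAK, bound by the S100A10 tetramer, stood at 0.04 on the log2 scale (adjusted p = 0.858), which turned to -0.01 with library size alone as scaling. MYH9, the myosin heavy chain bound by S100A4, had -0.22 (adjusted p = 0.259), and with both trends removed it fell by 0.52 (adjusted p = 0.0166). Ezrin (EZR), the most abundant partner gene, had -0.25 (adjusted p = 0.164), which passed with length alone removed (-0.33, adjusted p = 0.0466). TRPV6, an epithelial calcium channel trafficked by S100A10 and outside the naming rule, rose by 1.38 (adjusted p = 0.00424) at 1.90 CPM in GCA and 0.725 CPM in CON.

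Of the receptors for released S100 proteins and the genes of the plasminogen system, PLAU, BSG and PLAT rose and AREG fell. Of 18 genes 17 had a row and 14 were tested, 3 of which rose and 2 fell, a share near the 36.4% of all genes. The median log2 fold change was 0.07, and with both trends removed 2 rose and 3 fell. The 5 calls became 2 without GCA 3, 3 without CON 2 and 9 without CON 1. AGER, which encodes RAGE, had 1.93 CPM in GCA and 1.81 CPM in CON (log2 fold change 0.10, edgeR, adjusted p = 0.816, and -0.32 with both trends removed). TLR4 had at most 3 counts in any library. Basigin (BSG), a receptor for S100A9, rose by 0.53 (adjusted p = 0.00803), but stood at 0.06 with both trends removed (adjusted p = 0.705) and lost its call without GCA 3 (adjusted p = 0.0505).

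PLAU, the urokinase gene, rose most in this list. Its counts were 3684, 4049 and 4345 in GCA and 803, 1254 and 1497 in CON. The groups were far apart, at 205 ± 22.4 CPM in GCA and 62.5 ± 16.6 CPM in CON, with a log2 fold change of 1.72 ± 0.18 (edgeR, adjusted p = 3.02e-05). PLAT, the tissue plasminogen activator gene, rose by 0.51 (adjusted p = 0.012), a call lost with both trends removed (0.33, adjusted p = 0.0513) and without GCA 3 or CON 2. AREG, an EGFR ligand, fell by 1.30 ± 0.21 (241 ± 15.1 CPM in GCA and 592 ± 205 CPM in CON, adjusted p = 0.000585), and ENO1, a plasminogen-binding enzyme and the most abundant gene of the list, had -0.07 (adjusted p = 0.758) and fell by 0.41 with both trends removed (adjusted p = 0.0328).

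Other EF-hand genes, which share the calcium-binding fold, moved both ways. All 39 had a row and 36 were tested, of which 8 rose and 3 fell, where 36.4% of all genes passed. The median log2 fold change was 0.05, and with both trends removed 6 rose and 5 fell. The 11 calls became 6 without GCA 3 or CON 2. NUCB1, a Golgi calcium-binding protein gene, rose by 0.77 (edgeR, adjusted p = 0.000503), and CIB2 by 0.61 (adjusted p = 0.00385), the CIB2 call being lost with both trends removed (0.19, adjusted p = 0.195). The large subunit of m-calpain, CAPN2, fell by 0.77 (adjusted p = 0.000443) and the regulatory subunit of calcineurin, PPP3R1, by 0.59 (adjusted p = 0.00137; 0.0649 with GC content alone removed). The third was sorcin (SRI), outside the naming rule, which fell by 0.37 (adjusted p = 0.0194), but not with both trends removed (-0.11, adjusted p = 0.5) or without GCA 2, GCA 3, CON 2 or CON 3. The abundant genes ACTN4 and CALM3 had log2 fold changes of -0.01 (adjusted p = 0.952) and 0.23 (adjusted p = 0.214), of which CALM3 passed without CON 1 and turned to -0.07 with both trends removed. ACTN4 stood at -0.33 with both trends removed, past the threshold only with the block added (adjusted p = 0.0127).

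Of 24 transcription factor genes known as regulators of S100 genes, 23 were tested, 6 rose and 4 fell, where 36.4% of all genes passed. The median log2 fold change was 0.05, and with both trends removed 4 rose and 3 fell. The 10 calls became 6 without GCA 3 or CON 2. GRHL3, a Grainyhead factor of epithelial barriers, had 456, 613 and 614 counts in GCA and 24, 35 and 27 in CON and rose by 4.23 ± 0.21 (edgeR, adjusted p = 9.18e-08). IRF1 rose by 0.82 (adjusted p = 0.00038) and CEBPA by 0.72 (adjusted p = 0.00128), and the CEBPA call was lost with both trends removed (0.19, adjusted p = 0.207). Those that fell were FOSL1 by 0.61, SP1 by 0.58, HIF1A by 0.41 and NFKB1 by 0.34, with adjusted p-values of 0.00199, 0.00602, 0.0219 and 0.0468. Once both trends were removed SP1 stood at -0.32, NFKB1 at -0.28 and HIF1A at -0.09, none past the threshold, and the HIF1A and NFKB1 calls were also lost without GCA 1, GCA 3, CON 2 or CON 3. The NFKB1 call was lost with DESeq2 as well (adjusted p = 0.0566). CEBPB and JUNB, the most abundant, had -0.04 (adjusted p = 0.829) and 0.14 (adjusted p = 0.476). With both trends removed CEBPB fell by 0.60 (adjusted p = 0.0127) and JUNB stood at -0.42 (adjusted p = 0.0607). Once the block was added to that fit JUNB was past the threshold as lower.

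The 3 genes outside the S100 family whose pattern over the 6 libraries was nearest to that of S100A1 were IFI6, IFI27 and GRHL3. Likeness was the Euclidean distance between centred log2 CPM, which was 0.270 for IFI6, 0.494 for IFI27 and 0.781 for GRHL3. IFI6, an interferon-stimulated gene of mitochondria, had 133, 206 and 236 CPM in GCA and 18.0, 11.7 and 12.8 CPM in CON. As with S100A1, which IFI6 was picked to resemble, GCA 1 was the lowest of its group and CON 1 the highest of its group. GRHL3 had 22.6, 31.2 and 32.2 CPM in GCA and 1.34, 1.82 and 1.40 CPM in CON, where CON 1 was the lowest. IFI27, also interferon-stimulated, had 14.1, 24.7 and 27.6 CPM in GCA and 1.5, 0.782 and 1.35 CPM in CON.

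Markers bear on the label of colorectal cancer cells. Colorectal epithelial markers summed to 11133 to 12705 CPM in GCA and 7921 to 10113 CPM in CON. Most of this was keratins: KRT8 had 6994 CPM in GCA and 4957 CPM in CON, KRT18 had 2356 CPM in GCA and 1446 CPM in CON, and KRT19 had 2265 CPM in GCA and 2015 CPM in CON. EPCAM was at 317 CPM in GCA and 276 CPM in CON, and the intestinal factor CDX2 at 36.7 CPM in GCA and 30.8 CPM in CON. VIL1 and CDX1 stayed under 1 CPM on average in both groups, and LGR5 had at most 1 count in any library. KRT20 was low, at 1.92 CPM in GCA and 0.916 CPM in CON, and so was LGALS4, at 1.91 CPM in GCA and 2.38 CPM in CON. KRT18 rose by 0.70 (edgeR, adjusted p = 0.00407), KRT20 by 1.06 (adjusted p = 0.0246) and KRT8 by 0.50 (adjusted p = 0.0301). The KRT18 call was lost with GC content alone removed (adjusted p = 0.0599), and the KRT20 call without GCA 2, GCA 3 or CON 3. The KRT8 call was lost with both trends removed (0.34, adjusted p = 0.0658) and without any 1 of GCA 2, GCA 3, CON 2 and CON 3. KRT19 stood at 0.17 on the log2 scale (adjusted p = 0.355), passed without CON 1 (0.24, adjusted p = 0.0478), and fell by 0.33 with both trends removed (adjusted p = 0.0359). CDH1 also rose, while the mucin gene MUC2 fell, with counts of 0, 4 and 2 in GCA and 26, 14 and 35 in CON.

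S100A1 and S100A2 are best known from other cell types, so markers of cardiomyocytes and of stratified squamous epithelium are given beside them. No marker list covered hair, from which S100A3 is known. Markers of melanocytes and glia and of fibroblasts are given as further cell types. Cardiomyocyte markers summed to 37.3 to 42.7 CPM in GCA and 23.5 to 27.1 CPM in CON, nearly all of it TNNI3 (38.1 CPM in GCA and 23.8 CPM in CON). TNNT2 was higher on average in GCA, at 0.394 CPM against 0.0359 CPM in CON. MYL2 was lower on average, at 0.981 CPM in GCA and 1.64 CPM in CON. MYH6, MYH7, NPPA and RYR2 had at most 3 counts in any library. TNNI3 rose by 0.68 (edgeR, adjusted p = 0.00136), but stood at 0.10 with both trends removed (adjusted p = 0.556). Markers of stratified squamous epithelium summed to 98.2 to 107 CPM in GCA and 65.1 to 84.4 CPM in CON, with KRT10 at 58.0 CPM in GCA and 60.4 CPM in CON. KRT13 was at 39.2 CPM in GCA and 13.2 CPM in CON and rose by 1.56 (edgeR, adjusted p = 9.82e-05). KRT5 was higher on average, at 2.83 CPM in GCA and 0.964 CPM in CON, but did not pass (edgeR, adjusted p = 0.0611). TP63 was also higher on average, at 0.409 CPM in GCA and 0.126 CPM in CON. It had at most 10 counts in a GCA library and 4 in a CON library, and was not tested. KRT14, DSG3 and IVL were likewise higher on average in GCA. KRT6A was lower, at 0.235 CPM in GCA and 0.990 CPM in CON, and so were SPRR1A and SPRR1B. Markers of melanocytes and glia summed to 17.9 to 19.0 CPM in GCA and 8.76 to 9.94 CPM in CON, mostly PMEL, which rose by 1.34 (adjusted p = 0.000527). Fibroblast markers summed to 24.3 to 29.2 CPM in GCA and 24.6 to 46.4 CPM in CON. VIM varied most among them, with 89, 47 and 66 counts in GCA and 147, 439 and 37 in CON. VIM fell by 1.68 (adjusted p = 0.0395) and COL1A1 rose by 0.44 (adjusted p = 0.034), and both calls were lost without GCA 1, GCA 2, GCA 3 or CON 2, the VIM value being -0.55 without CON 2. After removal of both trends VIM stood at -1.89 (adjusted p = 0.0557) and COL1A1 at 0.06 (adjusted p = 0.704). With the replicate block the VIM call was lost as well (adjusted p = 0.0843). The part of these cell types in the S100 results was not tested.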

How the data were processed

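For the 16229 genes the authors deposited raw counts and, in a second table, FPKM. Per the submitters' processing notes, reads went through fastp 0.20.1, HTSeq 0.11.2 and HISAT2 2.2.1.0 with hg38, the role and order of each not being stated. The labels give the RNA as polyA, but the kit is a stranded one for total RNA after ribosomal depletion. Each deposited FPKM equals the count over the library's total and a fixed gene length (relative tolerance 1e-09, all 16229 genes), so it adds no measurement.

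Counts were tested with edgeR 4.0.16 in R 4.3.3, using TMM, filterByExpr with a minimum count of 10 and a minimum total of 15, and the quasi-likelihood functions glmQLFit and glmQLFTest on GCA against CON with 3 libraries each. Benjamini-Hochberg adjustment at 0.05 ran over 12604 genes, and the test was checked on simulated counts. CPM uses TMM-scaled library sizes, and errors are SD, or SE for fold changes. Libraries of a group differed beyond sampling noise (chi-square per gene 4.37 to 39.5). The S100 genes and the gene lists were chosen with earlier results of these data known. Outside the S100 family the text names, for each list, the 4 genes with the lowest p and the 2 most abundant, textbook partners and receptors, and the 3 genes with the pattern nearest to S100A1. Others are said to be outside this rule, and some marker genes it takes are covered by their list's sum. Some genes that the lists hold are counted but not reported here.

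For pairing, deviations from the group means were correlated between GCA and CON libraries. Same-numbered ones gave r of 0.206, 0.137 and 0.104 across genes, above a limit of 0.1, and others -0.172 to 0.0954. By that limit the numbers would pair the libraries. Deviations cancel within a group, so these values are not independent. GCA 3 with CON 3 (0.104) and GCA 2 with CON 3 (0.0954) lay close to the limit, so pairing is not settled. The tests reported are unpaired, and the replicate block is an alternative. Alternatives were other scalings and filters, DESeq2 1.42.0, limma-voom (limma 3.58.1), limma on the log2 of FPKM with 1 or 0.1 added, the replicate block, removal of GC content and length trends (natural splines with 5 degrees of freedom per library, GC from GENCODE release 29 transcripts for 99.2% of genes), and leaving out libraries.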

Additional observations from a re-analysis of the deposited data

How the results depend on the processing

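The removal of GC content and length trends moved the S100 genes: of the 10, S100A6 was no longer counted past the threshold with both removed, S100A11 and S100A16 were counted as lower, and S100A11 and S100A14 turned from positive to negative. The fits with GC alone or length alone were added after seeing the data, and the cause of these shifts was not tested. Under the other scalings, tools and left-out libraries 7 of the 10 genes passed, except that a filter of mean 1 CPM left out S100A9 and gave 6. With the replicate block 5163 genes passed in all (2518 up, 2645 down), against 4584 without it, and 7 S100 genes, 2 other S100 genes, 14 partners, 5 receptor and plasminogen genes, 12 other EF-hand genes, 8 neighbours and 11 regulators passed. The block moved no count by over 1.5 times. Of the genes named, ANXA3 and ANXA9 aside, it changed the calls of SNAPIN and VIM. The block with length removed gave 17 partners, the block with both trends removed 10 neighbours, and the fit with GC alone removed gave 7 EF-hand genes.

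Leaving out libraries gave 2621 (without GCA 3) to 7419 genes (without replicate 1 of both groups), with 3029 without CON 2. It gave 1 to 2 other S100 genes, 6 to 20 partners, 2 to 9 receptor and plasminogen genes, 6 to 19 EF-hand genes, 2 to 15 neighbours and 6 to 14 regulators. Of the genes outside the S100 family with a fold change in the text, 11 that did not pass changed sign. ANXA1 became 0.02 with both trends removed, 0.04 with the block added, 0.08 with GC alone, 0.12 with GC alone and the block, -0.38 and past the threshold with length alone (also with the block), and -0.29 to 0.13 with libraries left out. AHNAK became -0.01 with library size alone, -0.03 on log2 FPKM with either added constant, and -0.12 to 0.20 with libraries left out. AGER became -0.32 with both trends removed (with or without the block), -0.27 with GC alone, -0.28 with GC alone and the block, -0.11 with length alone (with or without the block), and -0.11 to 0.27 with libraries left out. CALM3 became -0.07 with GC alone or both trends removed (-0.06 with GC alone and the block). JUNB became -0.42 with both removed, and -0.40 and past the threshold with the block added. It became -0.39 with GC alone and -0.37 with the block, and -0.06 with length alone and -0.05 with the block. RPS27 became -0.09 with length alone, with or without the block. CHTOP became 0.01 with RLE, 0.02 with the 1 CPM filter, 0.00 with DESeq2, 0.21 with both removed (with or without the block), 0.25 with GC alone and 0.26 with the block, and -0.03 to 0.04 with libraries left out. ACTN4 became 0.01 with the 1 CPM filter and -0.07 to 0.09 with libraries left out, where CEBPB ran from -0.14 to 0.10 and ENO1 from -0.13 to 0.07. With both trends removed CEBPB was -0.60 and ENO1 -0.41, both past the threshold. KRT19 became -0.33 with both removed and past the threshold (with or without the block), -0.27 with GC alone and -0.07 with length alone (with or without the block), and 0.12 to 0.24 with libraries left out. Depth limits S100A9 and the S100 genes below the filter, whose counts lie at or near the floor.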
